A study of Mus musculus with 6 samples.

Results

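The genes described here are 10 markers of lung identity and of the airway and alveolar epithelium: the lineage factors Nkx2-1, Foxa1 and Foxa2, the ciliated cell genes Foxj1 and Tppp3, the secretoglobins Scgb1a1 and Scgb3a2, and the surfactant protein genes Sftpc, Sftpb and Sftpa1. They were chosen by name, with earlier results of these data known, and all 10 had a probe set of their own (1 each) among the 22180 genes tested. Their expression was measured in KP1, a single mouse small cell lung cancer line that came from a mouse model with knockout of Rb, p53 and p130, so every sample carried these losses. Control cells (3 arrays) received an empty ires-GFP vector and N1ICD cells (3 arrays) received the activated, intracellular domain of Notch1 with ires-GFP. Both were sorted for GFP 48 hours after transfection, so the RNA came from the cells that had taken up and expressed a vector. The sources used here do not state which promoter drove the insert. Values are log2 expression from Affymetrix Mouse Gene 2.0 ST arrays, and a difference of 1 on this scale is a doubling.

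Nkx2-1 is a homeobox factor that marks lung and thyroid from their first specification, and with the forkhead factors Foxa1 and Foxa2 it activates genes of both the secretory airway and the alveoli. Club cells of the airway secrete secretoglobins, ciliated cells need Foxj1 to build motile cilia, and alveolar type 2 cells make surfactant, whose protein Sftpc is the most specific to them. In the developing and repairing airway, Notch signaling favours secretory over ciliated and neuroendocrine fates. Small cell lung cancer is a neuroendocrine tumor, and many such tumors keep Nkx2-1.

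The median log2 expression of the 6 arrays lay between 5.59 and 5.72, and correlations across genes, which are not independent replicates, were 0.991 to 0.994 within groups and 0.980 to 0.984 between them. The neuroendocrine label of the line matched its markers: 10 of 10 measured pulmonary neuroendocrine markers had a control mean above every array median. Of all 22180 genes 12473 did so, which makes this a low bar. The median of the control means was 9.99 for these markers and 6.155 for all genes. Of the 10 markers 3 rose (Chga, Ncam1 and Resp18) and Insm1 fell (40% called against 7.1% of all genes). Of these, Resp18 and Insm1 passed in all 6 fits without 1 array, Chga in 2 and Ncam1 in 1 (without N1ICD replicate 2 or control replicate 1 for Chga, without control replicate 3 for Ncam1). Of the endothelial markers 3 of 10 were called (30% against 7.1% of all genes), Kdr and Tek higher and Erg lower in N1ICD. Their values are given with those of the macrophage and fibroblast markers at the end. Bulk RNA cannot tell fewer cells with a transcript from less of it per cell, and 3 arrays per group limit the precision of every value.

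In N1ICD cells both secretoglobins and Tppp3 rose, Sftpc and Nkx2-1 fell, and Foxa1, Foxa2, Foxj1, Sftpb and Sftpa1 did not pass the test. The count of called genes was 5 of 10, against 7.1% of all genes tested (limma, adjusted p under 0.05 over all genes). For rises it was 3 of 10 against 3.82%, and for falls 2 of 10 against 3.27%. The 10 genes and the lists below were chosen with earlier results known, so these shares are a description and no test. The 3 arrays of each group did not overlap for 6 of the 10 genes, against 26.1% of all genes. The median change of the 10 was 0.04 on the log2 scale, near the median of all genes of -0.02, and the changes ran from -1.71 to 3.11.

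**Figure D1:**
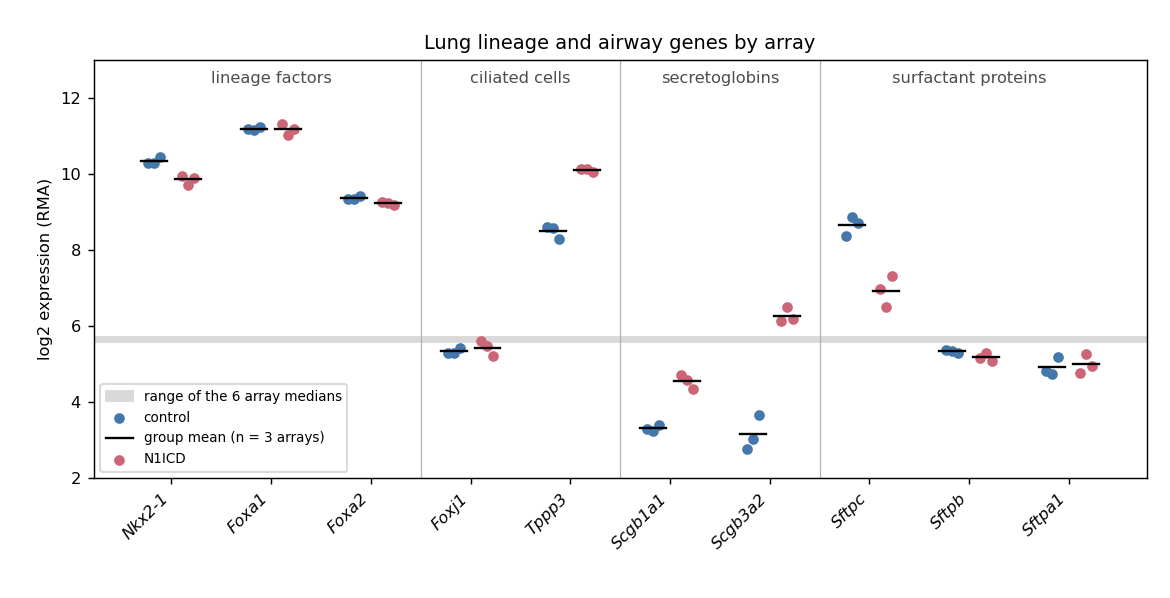
Log2 expression (RMA, y axis) of the 10 genes (x axis, by role) in each of 3 control and 3 N1ICD arrays, with points for arrays, black lines for group means and a grey band for the range of the 6 array medians (5.59 to 5.72). The secretoglobins and Tppp3 lie higher in N1ICD, Sftpc and Nkx2-1 lie lower, and Scgb3a2 moves from below the band to above it.

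Among the lineage factors Nkx2-1 was the one that fell. Its log2 expression was 10.30, 10.28 and 10.44 in control arrays and 9.96, 9.72 and 9.90 in N1ICD arrays. Every N1ICD array was below every control array, and the fall was 1.40-fold (log2 change -0.48 ± 0.11 SE, 95% confidence interval -0.73 to -0.24, limma adjusted p = 0.0315). This call was lost without any of the control arrays or without N1ICD replicates 2 or 3, where the adjusted p reached 0.12, and it held without N1ICD replicate 1 (adjusted p = 0.0459). Even after the fall the transcript stayed far above every array median. The smallest of these changes was that of Foxa1, a pioneer factor that opens chromatin. Foxa1 measured 11.17, 11.15 and 11.23 in control and 11.32, 11.03 and 11.19 in N1ICD. The groups overlapped, and the log2 change was -0.00 ± 0.10 (adjusted p = 0.99), with an interval of -0.25 to 0.24. Its relative Foxa2 measured 9.34, 9.34 and 9.42 in control and 9.27, 9.23 and 9.19 in N1ICD. The N1ICD arrays of Foxa2 lay below the control arrays, but the log2 change of -0.14 ± 0.09 (interval -0.34 to 0.07) missed the threshold at an adjusted p of 0.454. The changes of Nkx2-1 and Foxa1 were not tested against each other.

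The secretoglobins rose from some of the lowest values on the array. Scgb3a2, a small protein secreted by early and mature airway secretory cells, measured 2.77, 3.05 and 3.67 in control and 6.13, 6.50 and 6.19 in N1ICD. The groups were wide apart, with means of 3.16 ± 0.46 and 6.27 ± 0.20 (SD, n = 3), an 8.63-fold rise (log2 change 3.11 ± 0.22 SE, limma adjusted p = 0.000111). Of the 22180 genes, 6.36% had a lower control mean than Scgb3a2, whereas all 3 N1ICD arrays lay above their array's median. Scgb1a1, the main secreted protein of club cells, measured 3.31, 3.25 and 3.42 in control and 4.72, 4.57 and 4.36 in N1ICD. It rose 2.34-fold (log2 change 1.23 ± 0.12, adjusted p = 0.000574), again with no overlap, but every array stayed below its median. Both rises kept their calls without any 1 array.

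Background was not measured on these arrays, so a rough yardstick is the 1088 olfactory receptor genes, which most tissues outside the nose do not express; probe sets differ in affinity, so this only places a level roughly. Their control means ran from 1.88 at the 5th percentile to 5.59 at the 95th. The control mean of Scgb3a2 exceeded 42.1% of them and that of Scgb1a1 47.0%, close to the middle of that range. In N1ICD cells Scgb3a2 exceeded 98.3% and Scgb1a1 80.3%. The RMA method compresses changes of such dim probe sets, so the fold sizes of both secretoglobins hold for these values only.

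The ciliated cell genes parted. Tppp3, a tubulin-binding protein abundant in airway ciliated cells but also made elsewhere, measured 8.60, 8.57 and 8.30 in control and 10.12, 10.12 and 10.06 in N1ICD. All N1ICD arrays were high and close together, and the rise was 3.05-fold (log2 change 1.61 ± 0.11 SE, limma adjusted p = 8.72e-05), kept without any 1 array. Foxj1, the master regulator of motile cilia, measured 5.31, 5.28 and 5.43 in control and 5.62, 5.47 and 5.21 in N1ICD. Its groups overlapped and each array lay below its median (log2 change 0.09 ± 0.12, interval -0.19 to 0.38, adjusted p = 0.756).

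Sftpc was the one surfactant gene with control values above the array medians, and it fell. Sftpc measured 8.37, 8.87 and 8.70 in control and 6.98, 6.51 and 7.31 in N1ICD. Every N1ICD array was lower, by 3.28-fold on average (log2 change -1.71 ± 0.21 SE, interval -2.20 to -1.23, limma adjusted p = 0.00222), and the rank of this change was 3 from the lowest of all 22180 genes. The call held without any 1 array, with log2 changes of -1.90 to -1.50. Its N1ICD arrays remained above their medians. Sftpb, the surfactant protein without which newborn mice cannot breathe, measured 5.38, 5.35 and 5.29 in control and 5.16, 5.30 and 5.08 in N1ICD. The groups overlapped slightly, and the log2 change of -0.16 ± 0.10 (interval -0.38 to 0.07) missed the threshold at an adjusted p of 0.445. Sftpa1, a collectin that binds microbes, measured 4.82, 4.75 and 5.20 in control and 4.77, 5.27 and 4.97 in N1ICD, with overlapping groups (log2 change 0.08 ± 0.16, interval -0.30 to 0.46, adjusted p = 0.851). Both lay below their array's median on all 6 arrays, where a change may be compressed.

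**Figure D2:**
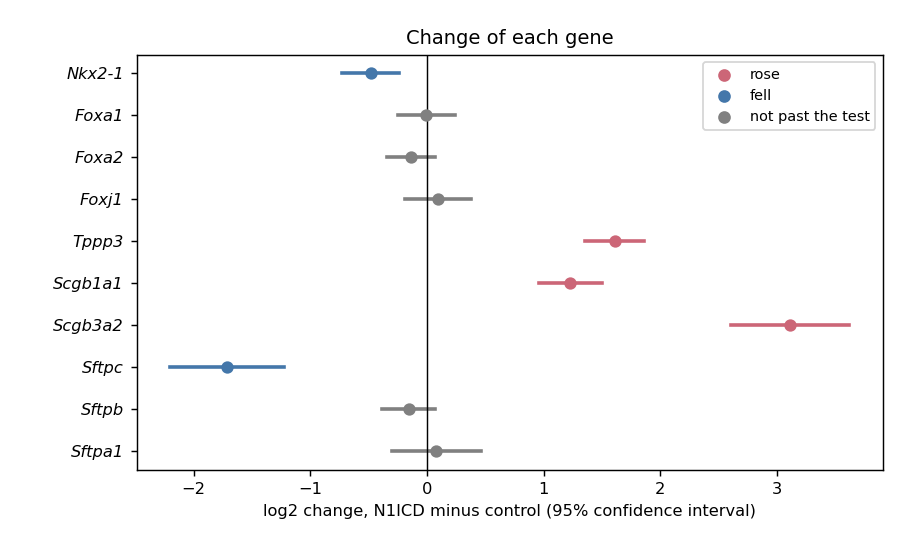
Log2 change (N1ICD minus control, x axis) of each of the 10 genes (y axis) with its 95% confidence interval from the limma fit, coloured by whether the gene passed the adjusted test. The intervals of Foxa1, Foxa2, Foxj1, Sftpb and Sftpa1 cross 0, and those of Tppp3, Scgb1a1 and Scgb3a2 lie above 0.95.

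Promoter sequences are shown for Sftpb and Sftpa1, classic NKX2-1 targets that did not pass the test here. Both lay below their array's median on all 6 arrays. The promoter of Nkx2-1, which itself fell, is shown beside them. Each is the 250 bases before the gene's start in RefSeq (GRCm38.p6), at chr12:56536909-56537158 (minus strand) for Nkx2-1, chr6:72304360-72304609 (plus strand) for Sftpb and chr14:41131538-41131787 (plus strand) for Sftpa1. RefSeq promoters matched 5 of the 10 genes: Nkx2-1, Foxa1, Foxa2, Sftpb and Sftpa1. The choice was limited to these, and Sftpc and the secretoglobins, which were called, were not among them. Capitals mark matches on either strand to the NKX2-1 letters CTCAAG, the FOXA letters TGTTTAC or the RBPJ letters TGGGAA, RBPJ being the DNA-binding partner of the Notch1 intracellular domain.
Nkx2-1: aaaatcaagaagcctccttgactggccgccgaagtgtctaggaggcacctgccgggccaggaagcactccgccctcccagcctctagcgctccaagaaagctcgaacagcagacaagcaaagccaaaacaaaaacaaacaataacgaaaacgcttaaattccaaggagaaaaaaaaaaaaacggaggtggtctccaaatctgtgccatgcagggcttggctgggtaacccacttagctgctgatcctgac
Sftpb: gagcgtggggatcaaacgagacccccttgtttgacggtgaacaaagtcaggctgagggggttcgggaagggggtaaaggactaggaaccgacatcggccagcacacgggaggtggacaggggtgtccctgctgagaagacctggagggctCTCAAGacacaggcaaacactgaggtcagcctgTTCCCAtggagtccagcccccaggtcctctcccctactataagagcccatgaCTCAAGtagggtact
Sftpa1: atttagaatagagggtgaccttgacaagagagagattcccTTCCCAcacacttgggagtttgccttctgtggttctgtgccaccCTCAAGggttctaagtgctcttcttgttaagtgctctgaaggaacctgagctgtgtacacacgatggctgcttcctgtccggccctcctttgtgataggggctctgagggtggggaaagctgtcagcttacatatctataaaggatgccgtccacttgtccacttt
CTCAAG occurred at 2 places in Sftpb, starting 100 and 15 bases before the gene's start, and at 1 place in Sftpa1, 166 bases before it. Of 27025 promoters of this length, 13.6% held it. TGGGAA, read on the opposite strand as TTCCCA, occurred at 1 place in Sftpb and 1 in Sftpa1, and 21.5% of all promoters held it. Its places, 67 and 210 bases before the start, did not overlap those of CTCAAG. The Nkx2-1 window held neither, nor TGTTTAC or the HES repressor letters CACNAG, which 3.09% and 36.7% of all promoters held. TGTTTAC occurred at 1 place in the Foxa1 window and CACNAG at 1 place in Foxa2, in the first of 3 listed promoters of that gene. These are matches of letters in short windows, and no binding was measured.

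The nearest genes on the chromosome give the members' surroundings. Of the 40 tested genes that lie within 2 places of a member, 1 rose and 2 fell, 7.5% in all against 7.1% of all genes. One of the falls was beside Sftpc: Lgi3, a secreted neuronal protein gene that alveolar type 2 cells also express. Lgi3 measured 9.49, 9.72 and 9.68 in control and 8.28, 7.79 and 8.41 in N1ICD. It was lower in every N1ICD array, by 2.77-fold (log2 change -1.47 ± 0.16 SE, limma adjusted p = 0.00135). For both Sftpc and Lgi3 the lowest array was N1ICD replicate 2. This was not particular to them: the same array was lowest for Nkx2-1 and Myb, though not for Etv5. On the other side of Sftpc, Bmp1 was not called (log2 -0.49 ± 0.15, adjusted p = 0.0964), and beyond Lgi3 lay Reep4 with -0.49 ± 0.16 (adjusted p = 0.127). The other fall was Atoh8, a bHLH factor gene next to Sftpb, with a log2 change of -1.56 ± 0.11 (adjusted p = 8.47e-05), beside the -0.16 of Sftpb itself. Jakmip2, placed 2 genes from Scgb3a2, rose by 0.58 ± 0.10 (adjusted p = 0.0103), while Spink1, between them, had -0.17 ± 0.16 (adjusted p = 0.627). Nkx2-1 and Foxa1 both lie on chromosome 12, and Sftpc and Sftpa1 both on chromosome 14. On one side of Nkx2-1, the transcript Sfta3-ps had -0.26 ± 0.15 (adjusted p = 0.402) and Mbip -0.37 ± 0.11 (adjusted p = 0.0995). On its other side, the transcript C87198 had -0.42 ± 0.16 (adjusted p = 0.174). Beyond C87198, Nkx2-9 went the other way with 0.27 ± 0.10 (adjusted p = 0.184).

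**Figure D3:**
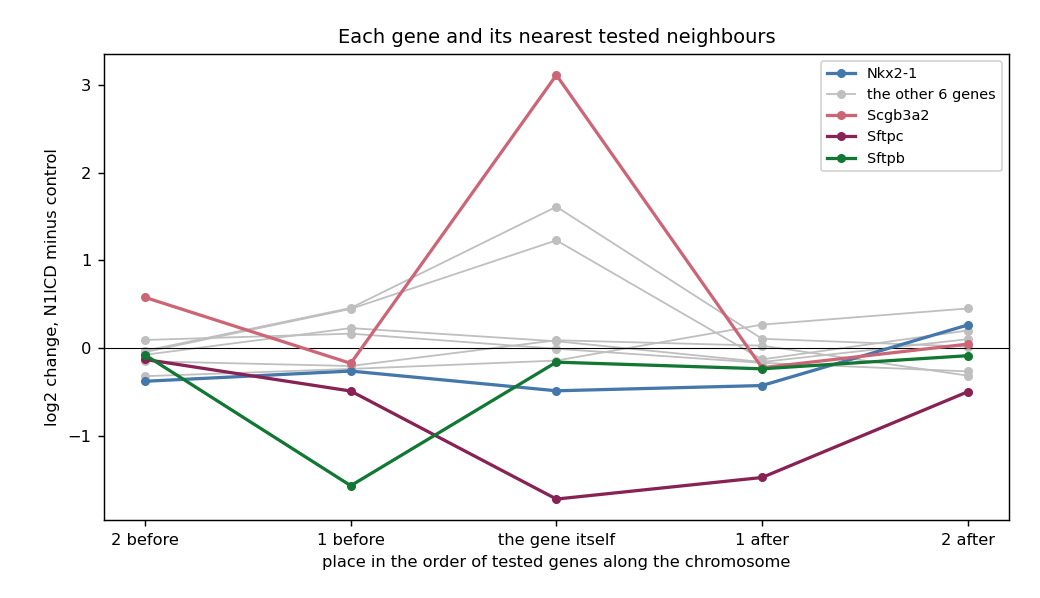
Log2 change (N1ICD minus control, y axis) of each of the 10 genes at the centre and of the 2 nearest tested genes before and after it along the chromosome (x axis), with 1 line for each of the 10. Sftpc (-1.71) and its neighbour Lgi3 (-1.47) lie low together, Scgb3a2 (3.11) stands above its neighbours, and Atoh8 (-1.56) is the low point beside Sftpb.

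The profile most like that of Scgb3a2, the called member with the largest change, was sought over the 6 arrays by Euclidean distance between log2 values centred on each gene's mean. The nearest were Pcdh8 (distance 0.371), Gucy1a1 (0.546), Cybrd1 (0.550), Pgf (0.578) and Tspan9 (0.589). Pcdh8 is a protocadherin, Gucy1a1 a subunit of the nitric oxide receptor, Cybrd1 an iron reductase, Pgf a growth factor of the VEGF family and Tspan9 a tetraspanin. Their log2 changes were 3.31, 3.35, 2.83, 3.08 and 2.96. With 2 groups of 3 arrays, a rise of similar size is enough to place a gene this near.

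The other transcription factors of lung development are the surroundings in which Nkx2-1 and the Foxa factors act. Of 31 measured, 5 rose and 1 fell (19.4% called against 7.1% of all genes, median change 0.04). Sox2, which specifies the proximal airway, measured 9.79, 9.57 and 9.67 in control and 10.86, 11.06 and 11.03 in N1ICD, and rose 2.47-fold. Sox9, which marks the distal lung tips, measured 7.54, 8.19 and 7.79 in control and 9.85, 9.46 and 9.24 in N1ICD, and rose 3.20-fold. The retinoic acid receptor Rarb measured 6.09, 6.34 and 6.80 in control and 7.94, 7.98 and 8.45 in N1ICD, a 3.28-fold rise (log2 change 1.71 ± 0.20 SE, limma adjusted p = 0.00189). For all 3 factors every N1ICD array was above every control array. Etv5, an FGF-responsive factor that maintains alveolar type 2 cells, measured 6.80, 6.75 and 6.80 in control and 5.87, 6.07 and 6.07 in N1ICD. It fell by 0.77 ± 0.10 on the log2 scale (adjusted p = 0.00253), and the mean over its probe sets changed by -0.45. Wwtr1, which encodes the coactivator TAZ, rose by 1.06 ± 0.25, and the homeodomain protein gene Hopx by 0.38 ± 0.09. Wwtr1 kept its call without control replicate 2 alone (adjusted p 0.0071 to 0.157 over the fits without 1 array), and Hopx lost it without each array (adjusted p 0.0888 to 0.161). The number of rises was 4 without control replicate 2, 3 without any other array and 3 with quantile normalization again. The number of falls was 3 with dim genes left out or with eBayes set to a robust intensity trend, and 2 with array weights. A second factor fell without control replicate 1 (Grhl1, adjusted p = 0.04) or control replicate 2 (Foxf1, adjusted p = 0.0413), both chosen after seeing their values. Gata6 (0.28 ± 0.14) and Cebpa (0.25 ± 0.13) did not pass the test.

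Alveolar type 2 genes beyond the surfactant genes above were mostly dim. Of 23 measured, 16 lay below every array median in both groups, against 8763 of all 22180 genes. Of the 23, 3 rose and 1, Lgi3, fell (17.4% called against 7.1% of all genes, median change 0.06). The receptor Fgfr2, whose ligands act on distal lung epithelium, measured 6.60, 7.21 and 7.02 in control and 9.12, 9.25 and 9.41 in N1ICD. It rose 4.98-fold with no overlap (log2 change 2.32 ± 0.16 SE, limma adjusted p = 0.000111). Lyz2, a lysozyme gene (0.52 ± 0.12), and the mucin Muc1 (0.42 ± 0.10) rose from low values. Lyz2 lost its call without each array (adjusted p 0.0519 to 0.11) and Muc1 did so unless N1ICD replicate 3 was the one left out (adjusted p 0.0455 to 0.163), so that 2 genes rose without N1ICD replicate 3 and 1 without any other. Fgfr2 alone also rose with equal array medians, where Lyz2 and Muc1 did not pass. Muc1 also missed the threshold with all probe sets tested, with the intensity trend and with the replicate block. The filter on dim genes removed Lyz2 and Muc1, so they were not tested there, and Fgfr2 rose. The lipid transporter Abca3 (-0.08 ± 0.09) and the lysosomal enzyme Napsa (0.13 ± 0.12), partners of surfactant production, did not pass the test. Of 16 alveolar type 1 genes, 2 rose and 1 fell (18.8% called against 7.1% of all genes, median change 0.26). A control mean above every array median was found for 11 of the 16, against 12473 of all 22180 genes. The membrane protein Emp2 measured 6.62, 7.37 and 7.29 in control and 9.08, 9.44 and 9.28 in N1ICD, a 4.52-fold rise (log2 change 2.18 ± 0.20, adjusted p = 0.000455). The receptor Gprc5a rose 2.22-fold (1.15 ± 0.15). Akap5, a kinase anchor, fell by 0.46 ± 0.11, a call lost without each array (adjusted p 0.066 to 0.146). Rtkn2, with a log2 change of -0.78 ± 0.19 (adjusted p = 0.0508), passed without N1ICD replicate 3 (adjusted p = 0.0353) and under 7 other settings of normalization, filter, probe sets, variance, weights and block (adjusted p 0.0168 to 0.0483), with -0.48 for the mean over its probe sets. The type 1 markers Ager (0.25 ± 0.11, adjusted p = 0.243) and Aqp5 (0.40 ± 0.12, adjusted p = 0.11) stayed short of the threshold.

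Of 22 further secretory airway genes, 15 lay below every array median in both groups, against 8763 of all 22180 genes. Of the 22, 1 passed the test (4.55%, near the 7.1% of all genes, with a median change of 0.09). That gene, the uroplakin Upk3a, rose by 0.50 ± 0.11 SE and kept its call only when N1ICD replicate 3 was left out (limma adjusted p 0.0326 to 0.13). Cyp2f2, the club cell cytochrome, had a log2 change of -0.01 ± 0.14 (adjusted p = 0.984), the related secretoglobin Scgb3a1 0.14 ± 0.18 (adjusted p = 0.752) and the goblet cell factor Spdef 0.18 (adjusted p = 0.412). Without control replicate 1 another secretory gene, Cbr2, passed the test (adjusted p = 0.0463), chosen after seeing its value.

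Of 34 further ciliated cell genes, 3 rose and 3 fell (17.6% called against 7.1% of all genes, median change 0.05). The ciliary factor Rfx2 measured 7.91, 7.95 and 7.75 in control and 8.82, 8.50 and 8.36 in N1ICD, and rose 1.61-fold. Tekt1, a filament protein of the axoneme, rose by 0.74 ± 0.14 SE, and Dnah5, a dynein heavy chain, by 0.46. The cell cycle and ciliogenesis factor Myb measured 9.86, 9.84 and 9.81 in control and 8.89, 8.31 and 8.72 in N1ICD. It fell by 1.19 ± 0.15 (limma adjusted p = 0.00222), and the mean over its probe sets changed by -0.76. Trp73, a p53 relative that acts upstream of Foxj1, fell by 0.63 ± 0.10 (adjusted p = 0.00805), and Ccdc40, an axonemal assembly gene, fell by 0.44. Leaving out 1 array left Myb and Trp73 past the test in each fit, but not Rfx2 (adjusted p 0.0237 to 0.0766), Tekt1 (0.0167 to 0.0653), Dnah5 (0.0425 to 0.135) or Ccdc40 (0.0584 to 0.116). The number of rises was then 0 without control replicates 2 or 3, 1 without control replicate 1 or N1ICD replicate 2 and 3 otherwise, with Capsl passing without N1ICD replicate 1 (adjusted p = 0.0483, chosen after seeing its value). The number of falls was 2 in each. The inducers Mcidas (0.10, adjusted p = 0.769) and Gmnc (0.28, adjusted p = 0.338) stayed short of it.

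Of 11 basal airway genes 1 was called (9.09%, against 7.1% of all genes): Dapl1 rose by 0.85 ± 0.15 SE (limma adjusted p = 0.0148), which no longer passed when control replicate 3 or N1ICD replicates 1 or 2 were left out (adjusted p up to 0.0654), while Krt15 joined it without control replicate 1 (adjusted p = 0.0463, chosen after seeing its value). Trp63, the defining basal cell factor, did not pass the test (-0.10 ± 0.15, adjusted p = 0.793). Foregut and gastric genes, which appear in lung tumors that lose Nkx2-1, gave 0 calls of 17 with limma, a count near the share of all genes. Of the 17, 2 had an unadjusted limma p under 0.05, against 4408 of all 22180 genes. The largest change among them was that of the villus protein Vil1 (-0.38 ± 0.13, adjusted p = 0.158).

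**Figure D4:**
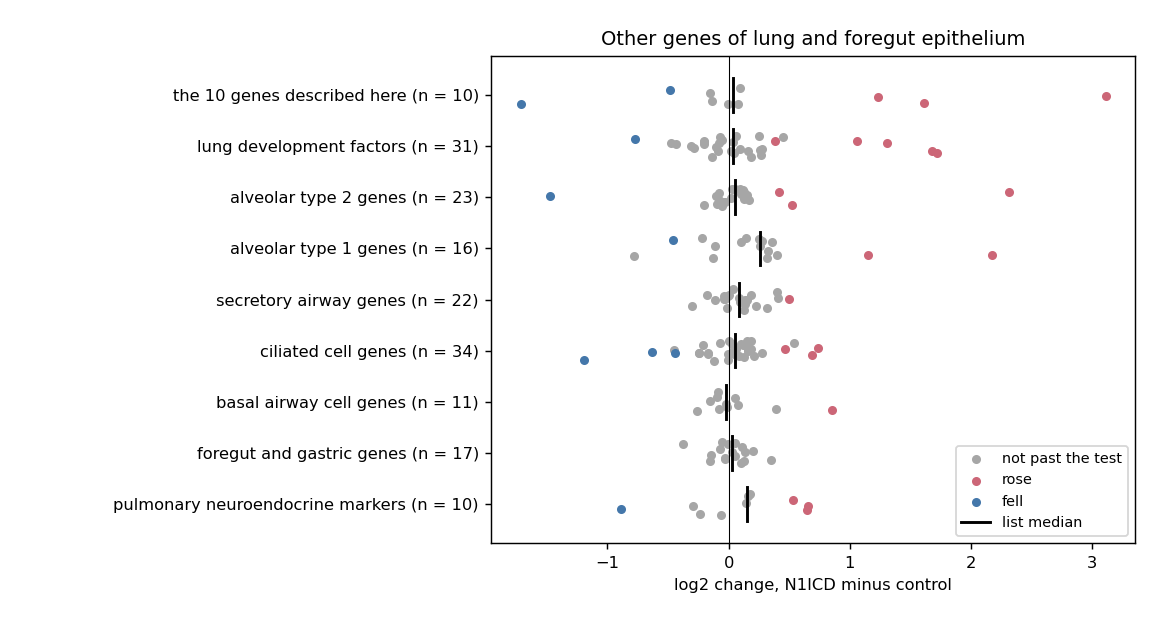
Log2 change (N1ICD minus control, x axis) of each gene of 9 lists (y axis), with 1 point per gene coloured by its call and a black line at each list's median. Secretory airway genes cluster near 0 with 1 call, and the 10 genes described here run from -1.71 to 3.11.

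Markers of other cell types were read beside these changes. The mean log2 level of 10 macrophage markers was 4.98 to 5.09 in control and 4.96 to 5.03 in N1ICD arrays. With limma 0 of the 10 were called, against 7.1% of all genes. An unadjusted limma p under 0.05 was found for 1 of the 10, against 4408 of all 22180 genes. The mean log2 level of 10 fibroblast markers was 5.91 to 5.98 in control and 5.90 to 5.99 in N1ICD arrays. Pdgfrb was higher (0.89 ± 0.14 SE) and Pdgfra lower (-0.74 ± 0.14) in N1ICD, 20% called against 7.1% of all genes. The call of Pdgfra did not hold in 4 of the 6 fits without 1 array (limma adjusted p 0.00981 to 0.0736). Dcn, chosen after seeing its value, was lower in every N1ICD array but was not called (-0.65 ± 0.18, adjusted p = 0.0752). It passed with equal array medians, dim genes left out, the intensity trend or the replicate block (adjusted p 0.0359 to 0.041). The mean log2 level of 10 endothelial markers was 5.56 to 5.64 in control and 5.87 to 5.94 in N1ICD arrays. This mean is weighted by the large change of Kdr. The median log2 change of the 10 markers was 0.08, with 6 higher and 4 lower in N1ICD. Among them the VEGF receptor Kdr (3.04 ± 0.17) and the angiopoietin receptor Tek (1.06 ± 0.14) rose and Erg fell (-1.28), 30% called against 7.1% of all genes. Erg lost its call without control replicates 1 or 3 (adjusted p up to 0.0584). The endothelial genes Cdh5 and Cldn5 had control means of 4.92 and 4.93, below every array median, and did not pass the test. Pecam1 did not pass either (adjusted p = 0.789), but its control mean of 6.01 was above every array median. Of the 10 endothelial markers, 6 lay below every array median in both groups, against 8763 of all 22180 genes. The other 4 had a control mean above every array median, against 12473 of all genes. Of 27 genes of other tissues, 1, the myelin gene Mbp, passed the test (3.7%, against 7.1% of all genes). Mbp did not pass without control replicates 2 or 3 or N1ICD replicate 2 (adjusted p 0.0412 to 0.0898 over the fits without 1 array). Whether RNA of other cell types or of vector uptake had a part in the changes above was not tested.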

How the data were processed

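Total RNA of 6 samples was hybridized, 1 array per sample. The authors deposited logarithmic values, and the submitters' processing notes name RMA, without a version, as the method, which corrects background, quantile normalizes and summarizes each probe set. The base of the deposited values is not stated and they were read as log2, since the highest value, 14.09, is above what natural logarithms of 16-bit scans can reach (11.09). No depth applies to arrays. Quantile normalization hides any change in the amount of RNA per cell.

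Of 41345 probe sets, 23521 had exactly 1 gene symbol in the platform annotation, 1814 several and 16010 no listed gene. Each gene was read at its brightest single-symbol probe set by the 6-array mean, which gave 22180 genes, with no filter on dim ones. N1ICD and control were compared with limma 3.58.1 in R 4.3.3 (lmFit, eBayes, two-sided, Benjamini-Hochberg over all genes, adjusted p under 0.05). Each ± after a log2 change is an SE, and confidence intervals are 95%, unadjusted. Of the listed symbols, 11 matched no probe set of their own. In simulated data with a spread modelled on these arrays, the fit called 11.9% of log2 changes of 0.5, 80.6% of 1 and 100% of 2. That simulation gave 134 calls, fewer than the 1574 of the real data, so these shares are a rough guide only. Neighbours and promoters came from RefSeq tables (GRCm38.p6), and no genome build for the arrays is stated in these sources. Figures used matplotlib 3.10.9.

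The genes described and the lists were chosen with earlier results of these data known. Named are all 10 genes, the called genes of each list or its largest change, the called neighbours, some uncalled neighbours and the most alike profiles. Uncalled list genes named beside them were picked for their known role, after their values were seen. Alternatives were another normalization, filter, probe set rule, variance model, array weights, threshold, replicate block and leaving out each array. The labels call the samples biological replicates but do not say how cultures were kept apart, so p-values measure the spread between these samples.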

Additional observations from a re-analysis of the deposited data

How the results depend on the processing

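Tppp3, Scgb1a1, Scgb3a2 and Sftpc kept direction and call in each alternative in which they were tested, with log2 changes of 1.51 to 1.67, 1.14 to 1.32, 2.91 to 3.36 and -1.90 to -1.50 without 1 array. The filter on dim genes removed Scgb1a1, Foxj1, Sftpb and Sftpa1 and left 13824 genes. Nkx2-1 kept its call under 8 other settings (adjusted p 0.0037 to 0.0425), but 1 of the 10 genes fell, Sftpc alone, at an adjusted p under 0.01 and 1 in the test against a 1.5-fold change. Without 1 array, 1 to 2 of the 10 fell. The number of changed genes was 668 and 282 at those 2 thresholds and 823 to 1230 without 1 array, and it was 2216 of 13824 with dim genes left out and 2276 with the intensity trend. Of the 5 that did not pass, Foxa2 and Sftpb kept their sign without 1 array, and 3 changed it, over ranges of -0.0739 to 0.0704 for Foxa1, -0.000198 to 0.204 for Foxj1 and -0.0538 to 0.218 for Sftpa1.

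Same-numbered arrays had correlated deviations of 0.232, 0.00831 and 0.201, and 4 of 6 arrays correlated best with their own number, a hint from the data. The numbers were not taken as pairs because the value for replicate number 2 (0.00831) is not over 0.1 and the labels state no shared batch. With the replicate number as a block 1518 genes changed, 3 of the 10 genes rose and 2 fell. The precision of dim genes is limited by signal near background.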
